A study of Homo sapiens with 3 samples.

Results

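The genes described here were the expressed members of the human ZNF genes, zinc finger genes named by number, in the gastric cancer cell line NCI-N87. Of 31907 rows in the deposited table, 500 carried a symbol made of ZNF and a number with at most 1 further letter. Of these, 52 were at 0 TPM in every library, 382 averaged at least 1 TPM, and 227 averaged at least 10 TPM over the 3 libraries and form the set. TPM is each gene's share of a library's reads, corrected for transcript length, so levels can be set side by side between genes. Because the choice rested on the mean over all 3 libraries, the levels themselves are a description, and a gene could enter through 1 library in which it was high. In all, 148 of the 227 genes reached 10 TPM in every library and 79 did not. Just inside the threshold stood ZNF174 (mean 10.06 TPM), ZNF117 (10.12 TPM) and ZNF79 (10.31 TPM), and just outside it ZNF271P (9.80 TPM), ZNF292 (9.68 TPM) and ZNF696 (9.34 TPM).

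NCI-N87 is an established epithelial line from a human gastric carcinoma. The study compared cells given an siRNA against the forkhead transcription factor FOXP4, labelled as a knockdown, with cells given a scrambled siRNA, labelled wild type. 1 library came from siRNA1, 1 from siRNA2 and 1 from the scrambled siRNA, and all cells had been transfected with Lipofectamine 2000. The siRNAs are different reagents, both comparisons share the single scrambled library, and separate cultures are stated nowhere. Any p-value therefore measures only the spread between the siRNA libraries. A time after transfection is not given in the sources used here.

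C2H2 zinc finger proteins carry repeated fingers that each hold a zinc ion and read a short stretch of DNA, and arrays of fingers give each protein its own target sites. Many also carry a KRAB domain at the start of the protein, which recruits the corepressor TRIM28 and, through it, the histone methyltransferase SETDB1, and many KRAB proteins silence transposable elements. Their genes arose by repeated tandem duplication, and a large share of the human ones lie in clusters on chromosome 19.

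The labels and the series as a whole were checked first. FOXP4 measured 51.6 TPM with siRNA1 and 36.7 TPM with siRNA2, against 93.9 TPM with the scrambled siRNA. From the spacing of low values, depth was estimated at 18100000, 18700000 and 18000000 reads in the siRNA1, siRNA2 and scrambled libraries. EPCAM, KRT8, KRT18, KRT19 and ERBB2, markers of a gastric epithelial line, were between 58.9 and 1930 TPM in every library, and CDH1 was lower, at 4.16 to 11.6 TPM. Of 9 markers of immune, fibroblast and endothelial cells, 7 had a row, and their sum was 6.44 TPM with siRNA1 and 22.5 TPM with siRNA2, against 13.2 TPM with the scrambled siRNA, nearly all of it COL1A1. The siRNA folds also followed base composition across all genes. Among genes outside the set with at least 10 TPM, the median log2 fold with siRNA1 was 0.48 where the longest transcript held under 40% G and C and −0.66 where it held at least 60%, while with siRNA2 these medians were −0.11 and −0.28. GC-corrected values, from which this trend had been removed, are therefore given beside the results. The correction also removed the general level of each siRNA's folds. Over all genes of at least 10 TPM it moved the siRNA2 median from −0.22 to 0.02, so a corrected value does not reflect base composition alone. FOXP4 itself held 62.9% G and C. Its log2 folds were −0.85 with siRNA1 and −1.33 with siRNA2, and −0.20 and −1.02 after the correction. The counting is not stated to use strand, so reads of genes that overlap on opposite strands cannot be told apart, and 120 of the 227 genes overlapped an annotated gene on the other strand.

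The set matched its name in the annotated coding sequences. Of the 225 genes with a coding sequence, 222 held at least 1 match to the C2H2 finger pattern and 213 at least 2, with a median of 10 and a maximum of 31, reached by ZNF142 and ZNF646. ZNF330, ZNF503 and ZNF703 held none, and ZNF204P and ZNF252P are pseudogenes without a coding sequence. A KRAB domain, scored by similarity to that of ZNF10, was found in 126 genes and not in 99. The set held 103 genes on chromosome 19, which is 45.4% of it, against 7.41% of all annotated genes of at least 10 TPM. Chromosome 7 held 20 of the genes and chromosomes 1 and 16 held 13 each. For 33 genes at least 10% of the transcript's 75-base words also occurred in another gene, so their values depend on how the authors' counting split such reads. This holds most of all for the near neighbours ZNF320 and ZNF468, which shared 99.5% and 99.2% of their words.

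Most of these genes were expressed at a low level. Their means had a median of 18.5 TPM, 203 were under 50 TPM and 5 reached 100 TPM. Summed over the set, the level was 8106 TPM with siRNA1 and 5482 TPM with siRNA2, against 6886 TPM with the scrambled siRNA. The siRNA1 sum was thus above and the siRNA2 sum below the scrambled one. Without ZNF703, the most abundant of the genes, the sums were 7603, 5246 and 6114 TPM in the siRNA1, siRNA2 and scrambled libraries, in the same order. The median gene rested on an estimated 567 reads with siRNA1 and 358 reads with siRNA2, against 457 reads with the scrambled siRNA, for which counting error alone amounts to 4.2%, 5.29% and 4.68%. PCR reads without molecular identifiers are not independent molecules, so these errors are lower limits. In a bulk sample, fewer cells of a kind and less RNA per cell cannot be told apart.

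ZNF703, a corepressor without a C2H2 match that is amplified in luminal breast cancers, was the most abundant, at 503 TPM with siRNA1 and 236 TPM with siRNA2, against 772 TPM with the scrambled siRNA. ZNF888, a KRAB gene with 17 fingers, followed at 395 and 220 TPM with siRNA1 and siRNA2, against 210.5 TPM with the scrambled siRNA. ZNF146, whose protein consists almost wholly of its 10 fingers, measured 270 and 141 TPM with siRNA1 and siRNA2, against 188 TPM with the scrambled siRNA. These 3 genes stood apart from one another in direction: both siRNA values lay below the scrambled one for ZNF703, both above it for ZNF888, that of siRNA2 by little, and on either side of it for ZNF146. ZNF664 was slightly lower with siRNA1 and further below with siRNA2, at 169 and 140 TPM, against 185 TPM with the scrambled siRNA. ZNF217, an oncoprotein that binds CtBP corepressors and is amplified in several carcinomas, was at 149 and 190 TPM with siRNA1 and siRNA2, against 78.2 TPM with the scrambled siRNA. ZNF581 was lower with both siRNAs, at 82.0 and 85.5 TPM, against 122.7 TPM with the scrambled siRNA. The GC-corrected log2 folds of ZNF703 were 0.17 with siRNA1 and −1.38 with siRNA2, so of its lower values only that with siRNA2 stayed below the scrambled level after the correction.

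Across the set the siRNAs gave different pictures. With siRNA1, 165 of the 227 genes (72.7%) were higher than in the scrambled library, against 52.1% of all genes of at least 10 TPM, and the median log2 fold, taken on TPM plus 1, was 0.47 (quartiles −0.13 and 0.77), against 0.03 over all genes tested. With siRNA2, 159 genes (70.0%) were lower, against 64.7% of all genes of at least 10 TPM, and the median log2 fold was −0.35, against −0.24 over all genes tested. Much of the siRNA2 value was thus shared with all genes. Of the 148 genes at 10 TPM or more in every library, 68.2% were higher with siRNA1 and 64.9% lower with siRNA2. Their medians were 0.42 and −0.27. The comparison genes were not restricted in this way. Under median-of-ratios rescaling, which brought the siRNA2 median of all genes tested to 0.00, that of the set was −0.08. For all genes of at least 10 TPM, the level required of the set, the rescaled siRNA2 median was 0.05. With siRNA1 the same rescaling left the set at 0.46. After the GC correction the medians of the set were 0.22 with siRNA1 and −0.13 with siRNA2. Those of all genes of at least 10 TPM were then 0.01 and 0.02. Comparing the siRNAs directly, 190 genes (83.7%) were lower with siRNA2 than with siRNA1, against 62.7% of all genes of at least 10 TPM, with a median log2 difference of −0.67, against −0.25 over all genes tested. Among the 148 genes at 10 TPM or more in every library, 118 (79.7%) were lower with siRNA2 than with siRNA1. Their median log2 difference was −0.52.

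Counted by a 2-fold rule, 27 of the genes were higher with siRNA1 (11.9%, against 3.84% of all genes of at least 10 TPM) and 12 lower (5.29%, against 4.35%). With siRNA2, 7 were 2-fold higher (3.08%, against 6.51%) and 29 lower (12.8%, against 10.9%). Both siRNAs gave a 2-fold higher value for 4 genes (1.76%, against 2.23%), ZNF697, ZNF800, ZNF117 and ZNF562. Both gave a 2-fold lower value for 4 genes (1.76%, against 1.57%), ZNF672, ZNF444, ZNF296 and ZNF574. The shares past 2-fold with both siRNAs thus lay close to those of all genes. By contrast, 69 genes were 2-fold lower with siRNA2 than with siRNA1 (30.4%, against 10.2%), and 2 were 2-fold higher (against 5.12%). Of the 69, 55 carried KRAB. Entry to the set bears on this count, since 221 of the genes reached 10 TPM with siRNA1 and 163 with siRNA2. Among the 148 genes at 10 TPM or more in every library, 23 (15.5%) were 2-fold lower with siRNA2 than with siRNA1. The genes behind the 10.2% were not restricted in this way.

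Limma tested both siRNA libraries against the scrambled one, with Benjamini-Hochberg adjustment over the 14429 genes of at least 1 TPM. In limma 0.00% of all these genes passed an adjusted p of 0.05, and none of the 227 genes did. Their smallest adjusted p was 0.9999 in limma, and at an unadjusted p under 0.05 limma gave 1 higher gene, ZNF697, and 2 lower ones, ZNF672 and ZNF444, against 2.97% of all genes. A limma fit restricted to the 9129 genes of at least 10 TPM called 1 of the genes, ZNF697, as higher, where 0.920% of its genes were called higher and 0.0986% lower. At an unadjusted p under 0.05 that fit gave 6 higher and 2 lower genes of the set, against 5.35% of all its genes in either direction. The test rests on 1 residual degree of freedom, the difference between the siRNAs, and the scrambled library is assumed to vary like them. In the restricted fit limma gave genes of one level a common spread, without weighing the spread of the gene itself.

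Most of the genes that differed between the siRNAs were KRAB genes. Among the 126 KRAB genes, 106 (84.1%) were higher with siRNA1 and 95 (75.4%) lower with siRNA2 than in the scrambled library, and their median log2 folds were 0.55 and −0.40. Among the 99 genes without KRAB, 57 (57.6%) were higher with siRNA1 and 62 (62.6%) lower with siRNA2, and the medians were 0.16 and −0.28. On the deposited scale these shares lay near those of all genes of at least 10 TPM, 52.1% and 64.7%. After the GC correction 72.7% of the genes without KRAB and 76.2% of the KRAB genes were higher with siRNA1. Lower with siRNA2 were then 50.5% of the genes without KRAB and 69.05% of the KRAB genes. The corrected shares of all genes of at least 10 TPM were 50.6% higher with siRNA1 and 49.1% lower with siRNA2. Between the siRNAs, 55 KRAB genes (43.7%) and 12 genes without KRAB (12.1%) were 2-fold lower with siRNA2 than with siRNA1. The share of all genes of at least 10 TPM was 10.2%, near that of the genes without KRAB. In the opposite order, 0 KRAB genes and 2 genes without KRAB were 2-fold higher with siRNA2, against 5.12% of all these genes. The median log2 difference of siRNA2 from siRNA1 was −0.92 for the KRAB genes and −0.35 for the genes without KRAB. The transcripts of the KRAB genes held less G and C, with a median of 42.6%, against 50.01% in the genes without KRAB. After the GC correction the medians with siRNA1 and siRNA2 were 0.27 and −0.24 for the KRAB genes, and 0.16 and −0.01 for the genes without KRAB.

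**Figure D1:**
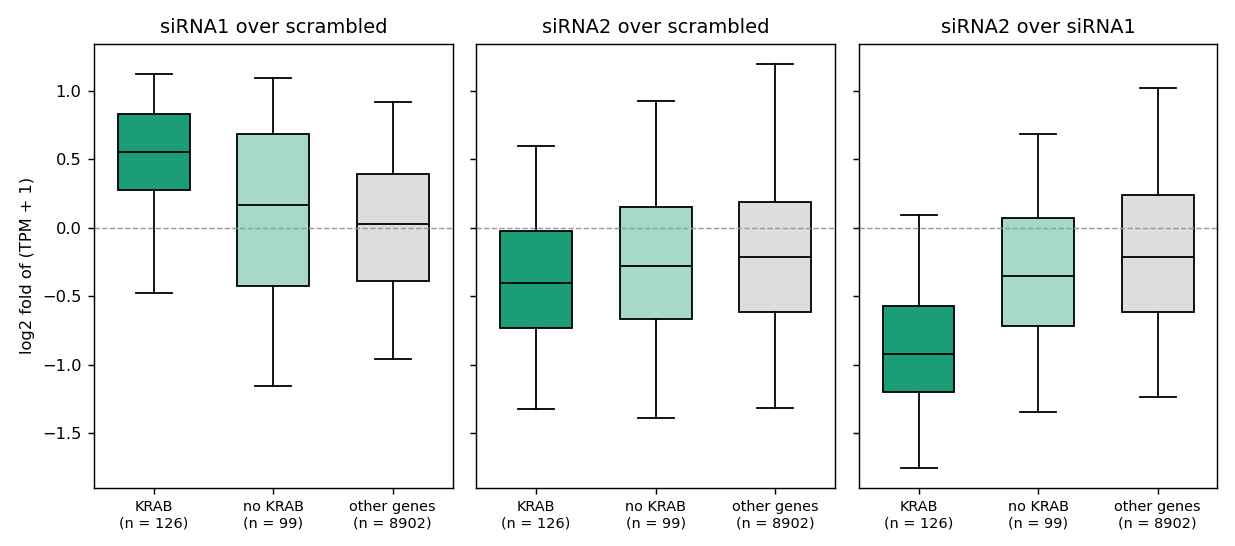
Log2 folds of TPM plus 1 for the 126 KRAB genes, the 99 ZNF genes without KRAB and the 8902 other genes of at least 10 TPM, with siRNA1 over scrambled, siRNA2 over scrambled and siRNA2 over siRNA1. The line is the median, the box the quartiles and the whiskers the 5th and 95th percentiles over genes of single libraries; the KRAB median is 0.55 with siRNA1, −0.40 with siRNA2 and −0.92 between the siRNAs.

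Longer arrays went with larger differences between the siRNAs. The median log2 difference of siRNA2 from siRNA1 was −0.25 in the 25 genes with 0 to 3 fingers, −0.41 in the 40 genes with 4 to 7, −0.67 in the 69 genes with 8 to 11, −0.78 in the 51 genes with 12 to 15 and −0.98 in the 40 genes with 16 or more. The folds over the scrambled library did not move alike. With siRNA1 the median was 0.16 in the genes with the fewest fingers and between 0.34 and 0.55 in the other classes, and with siRNA2 it was between −0.28 and −0.37 up to 15 fingers and −0.61 in the genes with 16 or more. Base composition moved with the finger number as well, with a median of 50.5% G and C in the genes with 0 to 3 fingers and 41.8% in those with 16 or more. GC-corrected siRNA2 medians were −0.04, 0.00, −0.12, −0.13 and −0.36 from the fewest to the most fingers. The corrected siRNA1 medians were 0.06, 0.16, 0.29, 0.22 and 0.24 in the same order. The KRAB genes also had more fingers, with a median of 12, against 7 in the genes without KRAB. Finger number was not examined apart from KRAB.

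Base composition was compared class by class. Under 40% G and C, the siRNA1 log2 folds of the 55 ZNF genes had a median of 0.79, against 0.48 in the 1385 other genes of that class. The 71 genes between 40% and 45% had 0.58, against 0.30, and the 31 genes between 45% and 50% had 0.36, against 0.10. Between 50% and 60% the values were −0.17 in the 39 ZNF genes and −0.25 in other genes, and from 60% upward they were −0.74 in the 31 ZNF genes and −0.66 in other genes. The siRNA1 difference from other genes was thus found in the classes under 50%, and the GC-rich ZNF genes were low with siRNA1 as other GC-rich genes were. With siRNA2 the medians of the ZNF genes, from the lowest class to the highest, were −0.27, −0.26, −0.39, −0.57 and −0.38, against −0.11, −0.18, −0.21, −0.26 and −0.28 in other genes. Under quantile normalization the siRNA2 medians of the ZNF genes turned to 0.05 in the lowest class and 0.02 in the next, against 0.08 and −0.02 in other genes. Under median-of-ratios rescaling they were −0.01 and 0.00 in these classes, against 0.17 and 0.09 in other genes.

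Under 45% G and C, the KRAB genes and the others had close medians with siRNA1 and distant ones with siRNA2. Under 40% G and C, the medians of the 33 KRAB genes were 0.76 with siRNA1 and −0.44 with siRNA2, and the 21 genes without KRAB had 0.80 and 0.24. Of these, 28 KRAB genes (84.8%) and 6 genes without KRAB (28.6%) were lower with siRNA2 than in the scrambled library, against 56.1% of the other genes of that class. Between 40% and 45% the 48 KRAB genes had 0.60 and −0.27, and the 22 genes without KRAB 0.56 and −0.04, the last value turning to 0.23 under median-of-ratios rescaling, 0.17 under quantile normalization and 0.14 with the GC correction. Between 45% and 50% the 25 KRAB genes had 0.40 and −0.41, and the 6 genes without KRAB 0.16 and −0.31. From 50% to 60% the medians were −0.16 and −0.58 in 15 KRAB genes, and −0.22 and −0.56 in 24 genes without KRAB. From 60% upward they were −0.65 and −0.55 in 5 KRAB genes, and −0.76 and −0.37 in 26 genes without KRAB. Genes are not replicates, and these medians carry no test.

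**Figure D2:**
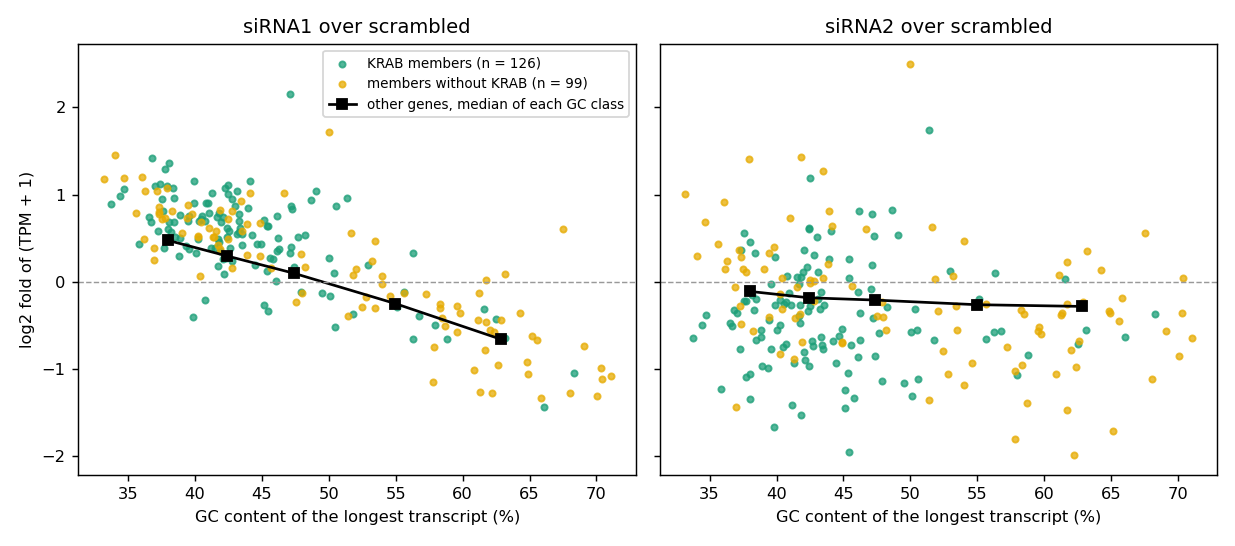
Log2 fold of TPM plus 1 over the scrambled library against the GC content of the longest transcript, with siRNA1 on the left and siRNA2 on the right. Each dot is 1 ZNF gene with a coding sequence, and the line joins the medians of the other genes in each GC class, which run from 0.48 to −0.66 with siRNA1 and from −0.11 to −0.28 with siRNA2.

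On chromosome 19 all ZNF genes of the table, whatever their level, were grouped wherever neighbouring ones started within 1000000 bases of each other, which gave 8 clusters with at least 3 genes of the set. Cluster bounds are those of all these ZNF genes, and the values are those of the genes of the set. All 8 had a positive median with siRNA1, between 0.27 and 0.90, and between 0.10 and 0.57 after the GC correction. With siRNA2 all 8 medians were negative on the deposited scale, between −0.05 and −0.94. The other 535 chromosome 19 genes of at least 10 TPM, whose median GC content was 59.98%, gave −0.52 with siRNA1 and −0.22 with siRNA2 as medians, and −0.03 and 0.08 after the correction. The ZNF genes of chromosome 19 thus stood apart from their neighbours in direction with siRNA1 (median 0.55, corrected 0.23). ZNF genes elsewhere had 0.33 with siRNA1 (corrected 0.20) and −0.33 with siRNA2 (corrected −0.06). After the correction the siRNA1 medians of ZNF genes on chromosome 19 and elsewhere were thus close. With siRNA2 the ZNF genes of chromosome 19 had −0.36 (corrected −0.20).

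Individual clusters differed with siRNA2. The third cluster, chr19:19668796-24129961, held 8 genes, 7 of them with KRAB. It had the highest siRNA1 median, 0.90, and a siRNA2 median of −0.05 that turned to 0.21 under median-of-ratios rescaling, 0.26 under quantile normalization and 0.10 with the GC correction. The fourth, chr19:34542462-34964049, held 4 KRAB genes whose median was 0.79 with siRNA1 and −0.94 with siRNA2, and the corrected siRNA2 value was −0.76. All 4 were higher with siRNA1 and lower with siRNA2, and they include ZNF792 and ZNF30. The seventh, chr19:51571298-53580269, held 19 genes, 18 with KRAB, and all 19 were higher with siRNA1 (median 0.50) while 15 were lower with siRNA2 (median −0.37). The second, chr19:11483427-12640098, had a siRNA2 median of −0.27 over 7 KRAB genes, which turned to 0.05 under quantile normalization.

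The eighth and largest cluster, chr19:55476332-58481230 near the end of the long arm, mixed both kinds. Of its 22 KRAB genes 18 were higher with siRNA1, with a median of 0.40, whereas of its 10 genes without KRAB 9 were lower, with a median of −1.02. These 10 genes were GC-rich, with a median of 64.9%, against 46.1% for the KRAB genes, and their corrected siRNA1 median was −0.13, against 0.21. With siRNA2 the medians were close together, at −0.41 in the KRAB genes and −0.36 in the others.

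**Figure D3:**
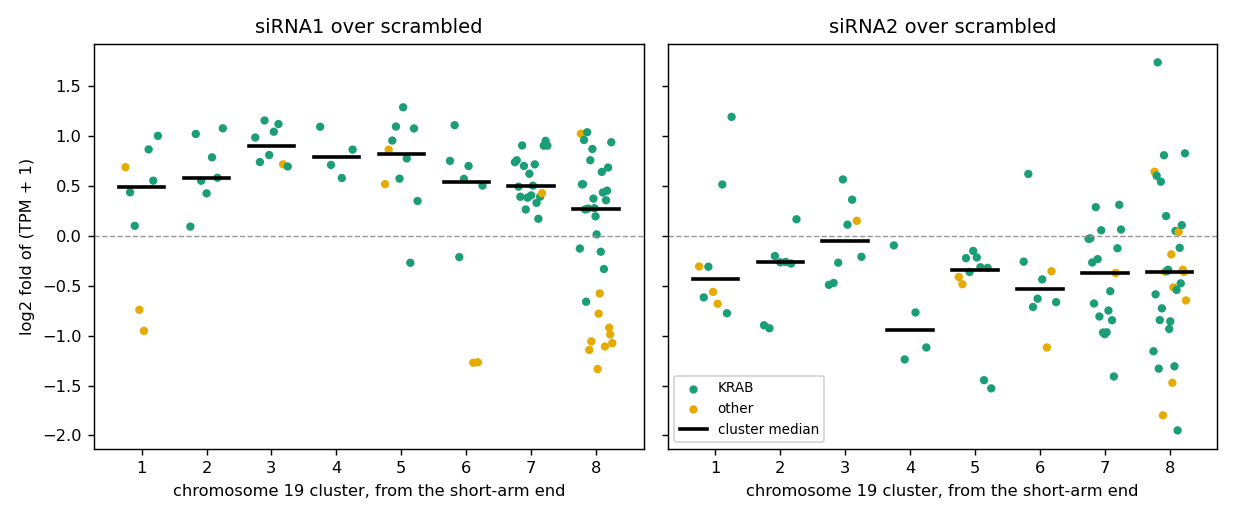
Log2 fold of TPM plus 1 over the scrambled library for the genes of the 8 chromosome 19 clusters, in order from the short-arm end, with siRNA1 on the left and siRNA2 on the right. Each dot is 1 gene and each bar a cluster's median, which lies between 0.27 and 0.90 with siRNA1 and between −0.94 and −0.05 with siRNA2, the third cluster's siRNA2 median turning positive under both rescalings and the second's under quantile normalization.

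The promoters of ZNF697, ZNF77, ZNF672 and ZNF562 are shown from 250 bases before to 50 bases after the RefSeq start. ZNF697 was the highest and ZNF672 the lowest gene with both siRNAs, ZNF77 had the largest siRNA1 fold of the set, and ZNF562, 2-fold higher with both, carries a full cyclic AMP response element. Sequences are from RefSeq on GRCh38.p14, 5′ to 3′ on the gene's strand, with capitals marking CCAAT boxes on either strand (ATTGG where reversed) or the element TGACGTCA. They lie at chr1:119648217-119648516 on the minus strand for ZNF697, chr19:2944922-2945221 on the minus strand for ZNF77, chr1:248837974-248838273 on the plus strand for ZNF672 and chr19:9675051-9675350 on the minus strand for ZNF562, and the RefSeq start of ZNF697 lies upstream of the GENCODE one.
ZNF697: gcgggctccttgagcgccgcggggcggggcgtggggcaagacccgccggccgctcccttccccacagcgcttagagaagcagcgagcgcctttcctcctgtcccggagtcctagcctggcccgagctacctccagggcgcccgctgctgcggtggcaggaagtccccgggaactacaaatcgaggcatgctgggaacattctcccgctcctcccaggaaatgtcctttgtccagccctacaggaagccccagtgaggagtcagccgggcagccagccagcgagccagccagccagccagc
ZNF77: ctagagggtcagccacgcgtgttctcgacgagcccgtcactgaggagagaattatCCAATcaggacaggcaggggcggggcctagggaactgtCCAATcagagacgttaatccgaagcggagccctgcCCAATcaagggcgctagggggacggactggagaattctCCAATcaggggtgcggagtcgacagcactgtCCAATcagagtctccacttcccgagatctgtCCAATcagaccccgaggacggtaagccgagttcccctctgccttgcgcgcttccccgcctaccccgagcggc
ZNF672: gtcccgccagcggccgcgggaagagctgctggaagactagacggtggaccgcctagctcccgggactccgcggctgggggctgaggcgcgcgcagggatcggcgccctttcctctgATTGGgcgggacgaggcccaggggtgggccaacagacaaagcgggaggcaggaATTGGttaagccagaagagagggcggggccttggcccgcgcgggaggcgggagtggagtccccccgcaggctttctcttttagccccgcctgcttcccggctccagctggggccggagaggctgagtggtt
ZNF562: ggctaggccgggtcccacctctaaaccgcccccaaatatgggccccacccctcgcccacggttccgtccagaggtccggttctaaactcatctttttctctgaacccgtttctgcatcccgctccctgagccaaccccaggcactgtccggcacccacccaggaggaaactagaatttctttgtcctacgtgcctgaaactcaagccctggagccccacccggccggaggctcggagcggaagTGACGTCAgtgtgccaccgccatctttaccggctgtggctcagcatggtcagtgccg

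Searched on both strands, the ZNF77 promoter held 6 CCAAT boxes, that of ZNF672 held 2, and those of ZNF697 and ZNF562 held 0. The letters CCAAT occurred in 88 of the 195 promoters of the set that RefSeq matched (45.1%), against 35.6% of the 27110 promoters of other genes and 36.8% of those of at least 10 TPM. At least 6 copies were found in 1 promoter of the set, that of ZNF77, and in 0.133% of other promoters. TGACGTCA occurred in 9 promoters (4.62%, against 1.96% of other genes' promoters and 3.54% of those of at least 10 TPM), among them those of ZNF562, ZNF143 and ZNF335. The forkhead letters TGTTTAC occurred in 2 (1.03%, against 3.43% and 2.36%) and the AP-1 letters TGANTCA in 11 (5.64%, against 7.78% and 4.28%). None of these motifs contains another. A match is a description of the letters in these windows only, and the CCAAT search and the display of the element were chosen after the sequences had been seen.

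ZNF697 (ENSG00000143067.4, chr1:119619422-119647773, minus strand), a gene with 11 fingers and no KRAB domain, was the highest with both siRNAs. It measured 68.8 TPM with siRNA1 and 119 TPM with siRNA2, against 20.2 TPM with the scrambled siRNA, so both siRNA libraries stood well above the scrambled one. The log2 folds were 1.72 and 2.50, and limma's mean fold was 2.11 ± 0.54 (SE, n = 2 against 1; adjusted p = 0.9999 by limma over all genes tested). In the limma fits restricted to genes of at least 10 TPM and to protein-coding genes its adjusted p was 0.0208 and 0.0270, and with the GC trend removed it was 0.577. Its GC-corrected folds, 1.75 with siRNA1 and 2.76 with siRNA2, were no smaller than the uncorrected ones.

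ZNF77 (ENSG00000175691.8, chr19:2933218-2944971, minus strand), a KRAB gene with 13 fingers that lies apart from the clusters, measured 163 TPM with siRNA1 and 62.3 TPM with siRNA2, against 35.8 TPM with the scrambled siRNA. It was higher with both, but far more with siRNA1. Its log2 folds were 2.16 and 0.78, the first being the largest siRNA1 fold of the set, and limma's mean fold was 1.47 ± 0.68 (SE; adjusted p = 0.9999 by limma).

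The rest of the 10 highest with both siRNAs included regulators known from other settings. ZNF800, described in human gut organoids as a repressor of endocrine differentiation, measured 35.7 and 44.9 TPM with siRNA1 and siRNA2, against 16.3 TPM with the scrambled siRNA. ZNF274, a KRAB protein that brings SETDB1 to the 3′ ends of other zinc finger genes, measured 19.4 and 33.9 TPM with siRNA1 and siRNA2, against 9.46 TPM with the scrambled siRNA. ZNF281, a factor tied to stem cell identity and epithelial-mesenchymal transition, measured 87.5 and 133 TPM with siRNA1 and siRNA2, against 48.8 TPM with the scrambled siRNA. In ZNF800, ZNF274 and ZNF281, as in ZNF217, ZNF562 and ZNF697, the siRNA2 value was the highest of the 3 libraries, which was the less common order in the set. ZNF562, a KRAB gene that shared 20.5% of its words with the antisense gene ZNF561-AS1, measured 32.9 and 37.6 TPM with siRNA1 and siRNA2, against 15.9 TPM with the scrambled siRNA. ZNF117, near the expression threshold, measured 13.3 and 11.8 TPM with siRNA1 and siRNA2, against 5.33 TPM with the scrambled siRNA. ZNF654 measured 29.8 and 24.3 TPM with siRNA1 and siRNA2, against 12.4 TPM with the scrambled siRNA. In ZNF117 and ZNF654 siRNA1 gave the higher value of the siRNAs, and in both transcripts G and C were scarce, at 33.2% and 36.0%. ZNF805, the only other KRAB gene here beside ZNF562, ZNF274 and ZNF77, measured 18.2 and 16.8 TPM with siRNA1 and siRNA2, against 9.01 TPM with the scrambled siRNA. Of the 10, 4 carried KRAB, and the log2 folds kept their sign after the GC correction, the smallest being 0.49 for ZNF281 with siRNA1. Of the 4 genes 2-fold higher with both siRNAs, only ZNF697 stayed so after the correction. The corrected siRNA1 folds of ZNF800, ZNF117 and ZNF562 were 0.60, 0.59 and 0.69. Conversely, ZNF274 (1.06 and 2.01) and ZNF77 (2.05 and 1.01) passed 2-fold with both siRNAs only after the correction.

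ZNF672 (ENSG00000171161.12, chr1:248838210-248849517, plus strand), with 14 fingers and no KRAB domain, was the lowest with both siRNAs. It measured 44.1 TPM with siRNA1 and 26.4 TPM with siRNA2, against 107.7 TPM with the scrambled siRNA. Its log2 folds were −1.27 and −1.99, and limma's mean fold was −1.63 ± 0.53 (SE, n = 2 against 1; adjusted p = 0.9999 by limma over all genes tested and 0.249 in the limma fit at 10 TPM). The transcript held 62.2% G and C, and the corrected folds were −0.65 and −1.67.

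The other 9 lowest genes were as a group GC-rich, between 57.8% and 71.1%. ZNF444, a SCAN-family gene, measured 14.5 and 8.82 TPM with siRNA1 and siRNA2, against 33.2 TPM with the scrambled siRNA. ZNF296 measured 12.6 and 14.1 TPM with siRNA1 and siRNA2, against 31.8 TPM with the scrambled siRNA. ZNF574 measured 11.6 and 11.2 TPM with siRNA1 and siRNA2, against 24.5 TPM with the scrambled siRNA. In these 3 genes both siRNA libraries stood below the scrambled one by at least 2-fold. ZNF219, a partner of SOX9 in cartilage formation in the mouse, measured 38.8 and 53.3 TPM with siRNA1 and siRNA2, against 97.2 TPM with the scrambled siRNA. ZNF580 measured 32.4 and 19.6 TPM with siRNA1 and siRNA2, against 56.3 TPM with the scrambled siRNA. The remaining ones, ZNF526, ZNF414, ZNF324 and ZNF865, had log2 folds between −0.65 and −1.07 with both siRNAs. Of the 10 lowest genes only ZNF324 carried KRAB, and it shared 31.3% of its words with another gene. After the GC correction no gene of the set stayed 2-fold lower with both siRNAs, and the corrected siRNA1 fold of ZNF865 was 0.07.

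**Figure D4:**
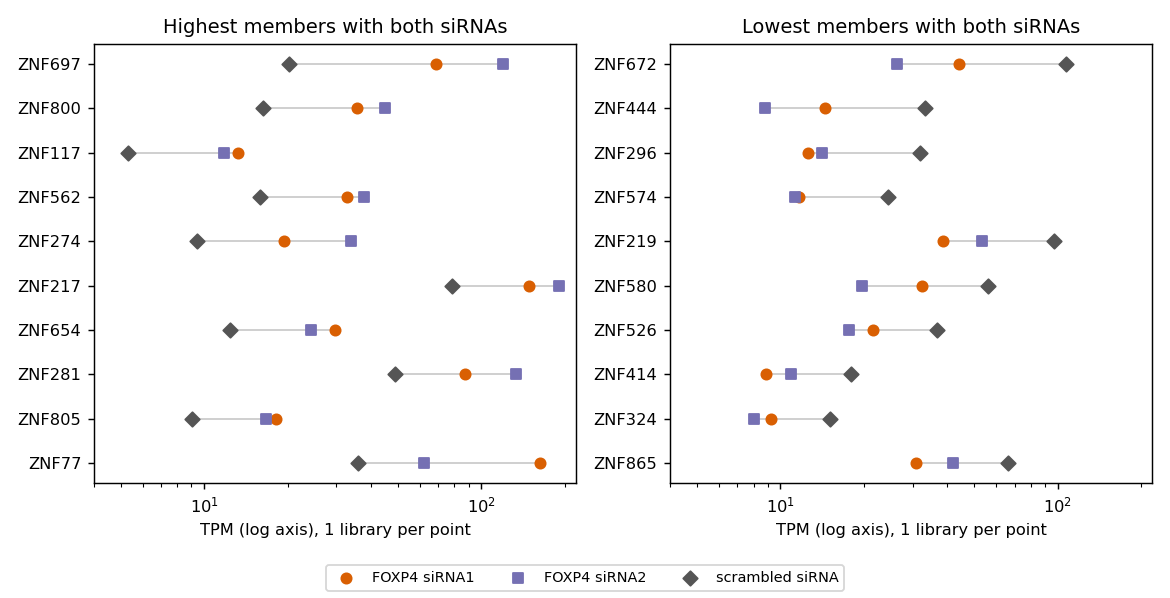
TPM on a log axis in the siRNA1, siRNA2 and scrambled libraries for the 10 genes highest and the 10 genes lowest with both siRNAs. Each point is 1 library and a grey line joins the 3 libraries of a gene; ZNF697 stands at 68.8, 119 and 20.2 TPM and ZNF672 at 44.1, 26.4 and 107.7 TPM in the siRNA1, siRNA2 and scrambled libraries.

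The 5 genes furthest below siRNA1 with siRNA2 all carried KRAB. ZNF792 measured 46.9 TPM with siRNA1 and 11.1 TPM with siRNA2, against 25.3 TPM with the scrambled siRNA. ZNF30, its neighbour in the fourth cluster, measured 26.2 and 6.05 TPM with siRNA1 and siRNA2, against 15.6 TPM with the scrambled siRNA. ZNF300, on chromosome 5, measured 22.2 and 4.99 TPM with siRNA1 and siRNA2, against 14.2 TPM with the scrambled siRNA. In each of them the scrambled library lay between the siRNA libraries. ZNF850, whose 30 fingers make it one of the longest arrays, measured 18.0 and 4.18 TPM with siRNA1 and siRNA2, against 13.9 TPM with the scrambled siRNA. ZNF443, which shared 28.2% of its words with ZNF799, measured 18.6 and 4.08 TPM with siRNA1 and siRNA2, against 8.64 TPM with the scrambled siRNA. After the GC correction the siRNA2 folds of these 5 genes were between −0.76 and −1.36.

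The opposite order, siRNA2 above siRNA1, was rare. ZNF579 measured 18.7 TPM with siRNA1 and 42.7 TPM with siRNA2, against 48.7 TPM with the scrambled siRNA. ZNF628 measured 11.8 and 27.4 TPM with siRNA1 and siRNA2, against 26.6 TPM with the scrambled siRNA. These were the 2 genes past 2-fold in this order, and both lie in the eighth cluster. ZNF428 and ZNF205 followed with siRNA1 values below the siRNA2 ones, and ZNF697 was the fifth. All but ZNF697 held over 60% G and C, and the corrected siRNA1 folds of ZNF579, ZNF628, ZNF428 and ZNF205 were −0.50, 0.00, −0.70 and −0.59.

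The genes were also read by known role, from lists chosen with earlier results of these data known. Of the KRAB repressors with a described target, 7 were in the set, and all 7 were higher with siRNA1, against 52.1% of all genes of at least 10 TPM, and 5 were lower with siRNA2, a share near the 64.7% of all these genes. Among all 126 KRAB genes of the set, 84.1% were higher with siRNA1 and 75.4% lower with siRNA2. The medians of the 7 were 0.50 and −0.21, the siRNA2 median turning to 0.05 and 0.09 under the median-of-ratios and quantile scalings. ZNF93, which binds L1 retrotransposons, measured 22.9 and 11.7 TPM with siRNA1 and siRNA2, against 13.7 TPM with the scrambled siRNA. ZNF445, a guardian of imprinted loci, measured 17.0 and 12.5 TPM with siRNA1 and siRNA2, against 13.3 TPM with the scrambled siRNA. ZNF350, a partner of BRCA1 also called ZBRK1, measured 20.5 and 9.22 TPM with siRNA1 and siRNA2, against 15.4 TPM with the scrambled siRNA. ZNF274 and ZNF267 were the exceptions in that both siRNA values lay above the scrambled one, ZNF267 at 42.3 and 22.1 TPM with siRNA1 and siRNA2, against 15.8 TPM with the scrambled siRNA. ZNF202 and ZNF45 had siRNA2 folds of −0.58 and −0.66.

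Of the promoter-binding factors, 8 were in the set, at a median of 0.48 with siRNA1 and of 0.09 with siRNA2. ZNF143, an activator of many housekeeping and small RNA promoters, measured 37.6 and 26.9 TPM with siRNA1 and siRNA2, against 26.5 TPM with the scrambled siRNA. Its close relative ZNF76 measured 10.3 and 9.35 TPM with siRNA1 and siRNA2, against 11.4 TPM with the scrambled siRNA. ZNF148, which binds GC-rich promoter elements, measured 34.2 and 26.6 TPM with siRNA1 and siRNA2, against 19.4 TPM with the scrambled siRNA. Of this pair of relatives, then, ZNF143 was higher with siRNA1 and ZNF76 was not, and ZNF148 was above the scrambled level in both. ZNF24 measured 61.3 and 38.2 TPM with siRNA1 and siRNA2, against 29.3 TPM with the scrambled siRNA. ZNF263, ZNF384 and ZNF335 had log2 folds between −0.44 and 0.47, and ZNF384 shared 48.5% of its words with another gene.

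The cancer-related genes beside ZNF217 and ZNF703 were ZNF395 and ZNF165. ZNF165, a cancer-testis gene, measured 22.4 and 16.6 TPM with siRNA1 and siRNA2, against 10.6 TPM with the scrambled siRNA. ZNF395 measured 17.2 and 14.3 TPM with siRNA1 and siRNA2, against 21.4 TPM with the scrambled siRNA. Over the 4 genes the medians were 0.31 with siRNA1 and 0.03 with siRNA2, the siRNA2 value turning to −0.04 with mitochondrial genes left out.

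The 9 genes that act on RNA, ribosomes or mitosis had a median log2 difference of siRNA2 from siRNA1 of −0.31. Their medians over the scrambled library were 0.24 and 0.07 with siRNA1 and siRNA2, the siRNA2 value turning to 0.00 with mitochondrial genes left out. ZNF598, the ubiquitin ligase that senses collided ribosomes, measured 42.8 and 50.1 TPM with siRNA1 and siRNA2, against 68.5 TPM with the scrambled siRNA. ZNF622, a factor of the large ribosomal subunit's maturation, measured 106 and 93.9 TPM with siRNA1 and siRNA2, against 89.7 TPM with the scrambled siRNA. ZNF207, a kinetochore and spindle protein, measured 41.3 and 33.1 TPM with siRNA1 and siRNA2, against 34.4 TPM with the scrambled siRNA. ZNF598 thus lay below the scrambled value with both siRNAs, with corrected folds of 0.15 and −0.11, and ZNF622 lay slightly above it with both. ZNF638 and ZNF106, which bind RNA and act in splicing, had log2 folds of 0.88 and 0.66 with siRNA1 and of 0.33 and 0.82 with siRNA2. ZNF346, which binds double-stranded RNA, had −0.29 and −0.80 with siRNA1 and siRNA2. ZNF326, ZNF385A and ZNF830 were between −0.22 and 0.49.

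For the 7 genes of chromatin complexes the median was 0.08 with siRNA1 and −0.28 with siRNA2. ZNF592 and ZNF687 form a complex with ZMYND8. ZNF592 was nearly level, with log2 folds of 0.08 with siRNA1 and 0.03 with siRNA2. ZNF687 was somewhat lower with both, at −0.26 and −0.33. ZNF644, which joins WIZ in the complex of the histone methyltransferases EHMT1 and EHMT2, measured 64.1 and 29.9 TPM with siRNA1 and siRNA2, against 36.4 TPM with the scrambled siRNA. ZNF451, a SUMO ligase, measured 15.1 and 9.45 TPM with siRNA1 and siRNA2, against 8.67 TPM with the scrambled siRNA. ZNF618 was the lowest of them with siRNA2, at 22.2 and 11.6 TPM with siRNA1 and siRNA2, against 25.2 TPM with the scrambled siRNA. ZNF516 had −0.02 with siRNA1 and 0.47 with siRNA2, and ZNF280C had 0.81 with siRNA1 and −0.56 with siRNA2, the same order as most KRAB genes although it lacks KRAB. None of the genes named by role passed limma's test over all genes.

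**Figure D5:**
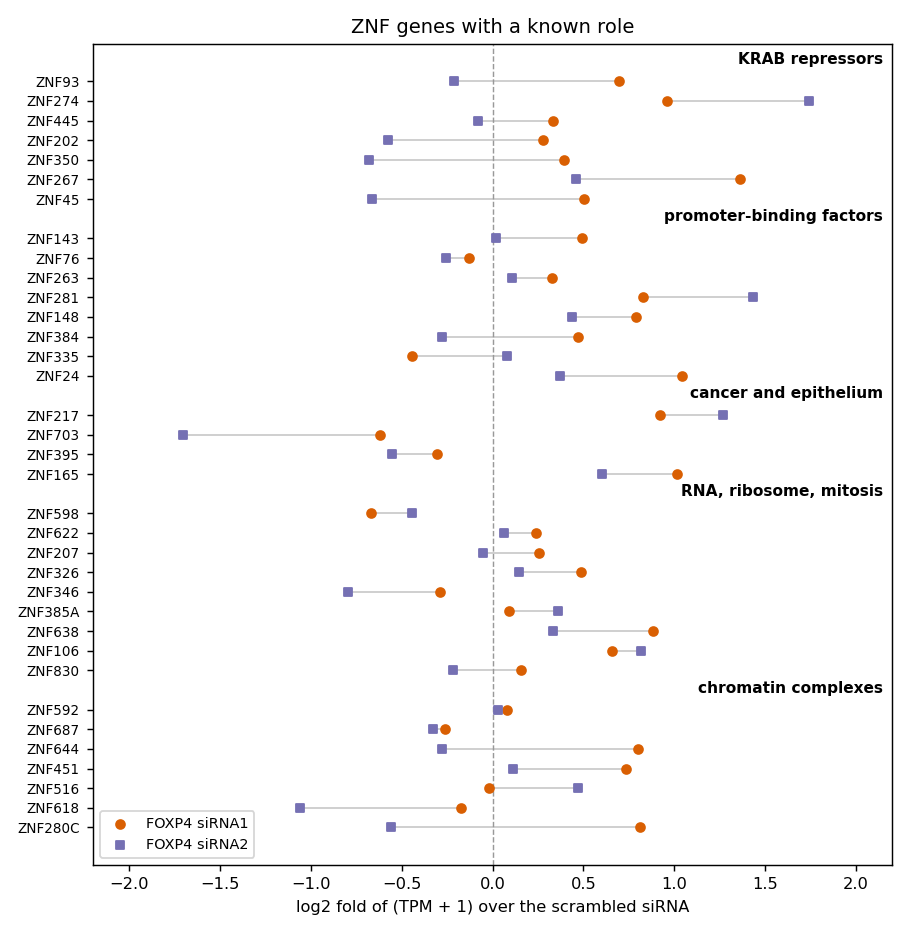
Log2 fold of TPM plus 1 over the scrambled library for the ZNF genes with a known role, grouped by role, with siRNA1 and siRNA2 as separate points joined by a line. Of the 7 KRAB repressors 5 lie right of 0 with siRNA1 and left of it with siRNA2, and ZNF703 with siRNA2 lies furthest left, at −1.71.

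The corepressors through which KRAB proteins act were measured for comparison, 19 genes in all. Their medians were 0.04 with siRNA1 and −0.42 with siRNA2, and 16 of the 19 were lower with siRNA2, against 64.7% of all genes of at least 10 TPM, while the siRNA1 median turned to −0.19 with the GC correction. TRIM28, the scaffold that KRAB binds, measured 475 and 476 TPM with siRNA1 and siRNA2, against 1040 TPM with the scrambled siRNA. SETDB1 measured 21.6 and 17.0 TPM with siRNA1 and siRNA2, against 19.8 TPM with the scrambled siRNA. EHMT2, a histone H3 lysine methyltransferase, measured 19.6 and 7.73 TPM with siRNA1 and siRNA2, against 39.9 TPM with the scrambled siRNA. TRIM28 and EHMT2 were thus lower in both siRNA libraries, SETDB1 was nearly level, and TRIM28 holds 63.7% G and C, with corrected folds of −0.42 and −0.80. UHRF1, which recruits DNMT1 to replicated DNA, measured 33.3 and 31.0 TPM with siRNA1 and siRNA2, against 64.5 TPM with the scrambled siRNA. At the other end, the remodeller SMARCAD1 had log2 folds of 0.66 and 0.05, and FAM208A, the gene of the HUSH subunit TASOR, 0.50 and −0.04. None of the 19 passed limma's test over all genes.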

How the data were processed

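Polyadenylated RNA of 3 NCI-N87 libraries was sequenced after random-hexamer priming with a NEBNext Ultra kit, per the labels' protocols. The authors deposited 1 table of TPM values per gene, aligned to GRCh38 (hg38) per the submitters' processing notes; quantifier and annotation are not given in the sources used here. Since TPM states no depth, reads were estimated from the spacing of values up to 2 TPM, of which 93.3% to 93.4% per library came within 0.1 of whole reads.

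Members were genes named ZNF and a number that averaged 10 TPM or more. The members, role lists, families and markers were chosen with earlier results of these data known. Folds are differences of log2(TPM + 1) over the scrambled library. Because the values are TPM, limma 3.58.1 in R 4.3.3 (intensity trend, two-sided, Benjamini-Hochberg over all genes of at least 1 TPM, threshold 0.05) was used and no count test; the steps were tested on simulated data. Medians over genes carry no test. GENCODE 29 (GRCh38) gave positions, types, GC content of the longest transcript and coding sequences, by gene symbol. The GC trend of each fold, its general level included, was removed by lowess (span 0.3) fitted on genes of at least 10 TPM. C2H2 fingers were counted by pattern in the translated sequence, and KRAB was called from a local alignment score of at least 60 to residues 14 to 55 of ZNF10, a threshold set after the scores were seen; 5 genes scored from 40 to under 60 and were counted as without KRAB. Alternatives were pseudocounts of 0.1 and 5 TPM, no filter or 10 TPM, median-of-ratios and quantile scaling, no mitochondrially encoded genes, protein-coding genes only, the GC correction, no intensity trend, each siRNA alone, and membership at 5 or 20 TPM.

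Named are 3 marker genes (ZNF697, ZNF672, ZNF77), the 6 most abundant genes, 10 genes at either end ranked on whichever of their same-direction folds was smaller, the 5 furthest apart between siRNAs each way, the 3 nearest the membership threshold on each side, the role lists, and TRIM28, SETDB1 and the 2 highest and 2 lowest corepressors. ZNF142, ZNF646, ZNF330, ZNF503, ZNF204P, ZNF252P, ZNF320 and ZNF468 were named after their values were seen.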

Additional observations from a re-analysis of the deposited data

How the results depend on the processing

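The median log2 fold of the set, averaged over the siRNAs, was −0.01, and between −0.01 and 0.12 under the alternatives that keep both siRNAs. It averages opposite values, −0.35 for siRNA2 alone and 0.47 for siRNA1 alone, so its nearness to 0 shows no stability. Limma called 0 of the 227 genes except in the fit at a mean of 10 TPM and in that on protein-coding genes, which called 1 each, ZNF697; those fits called 93 and 90 genes in all, the fit without mitochondrially encoded genes 11, and the others 0. The 4 genes 2-fold higher with both siRNAs became 1 with a pseudocount of 5 TPM, and leaving out either siRNA gave 7 to 27. The 4 genes 2-fold lower with both became 1 with that pseudocount, 2 with median-of-ratios rescaling, 2 with quantile normalization, 0 with the GC trend removed and 1 among genes of at least 20 TPM, and leaving out either siRNA gave 12 to 29.

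For 67 named genes under the alternatives that keep both siRNAs, 653 values kept the direction and side of the threshold of the mean fold, 2 passed it and 15 reversed. With 1 siRNA alone, a value with no test, 115 kept the direction of the mean fold and 19 reversed it. These were ZNF146 (−0.41 to 0.52), ZNF202 (−0.58 to 0.28), ZNF207 (−0.054 to 0.26), ZNF280C (−0.56 to 0.81), ZNF30 (−1.24 to 0.71), ZNF300 (−1.34 to 0.61), ZNF335 (−0.44 to 0.082), ZNF350 (−0.68 to 0.39), ZNF384 (−0.28 to 0.47), ZNF443 (−0.93 to 1.02), ZNF445 (−0.077 to 0.33), ZNF45 (−0.66 to 0.50), ZNF516 (−0.022 to 0.47), ZNF628 (−1.11 to 0.039), ZNF644 (−0.28 to 0.80), ZNF792 (−1.12 to 0.86), ZNF830 (−0.22 to 0.16), ZNF850 (−1.53 to 0.35) and ZNF93 (−0.21 to 0.70), with the range over the siRNAs. With the GC trend removed the mean folds reversed to −0.043 for ZNF146, −0.11 for ZNF207, −0.053 for ZNF280C, 0.25 for ZNF335, −0.051 for ZNF443, 0.018 for ZNF598, 0.20 for ZNF628, 0.062 for ZNF687, 0.11 for ZNF76 and 0.033 for ZNF792. Median-of-ratios rescaling reversed ZNF45 to 0.049 and ZNF830 to 0.10, and quantile normalization ZNF45 to 0.033, ZNF792 to 0.011 and ZNF830 to 0.082. The cause of these changes was not tested. No paired analysis was possible because the single scrambled library carries no replicate number. With 1 scrambled library and 2 siRNA libraries, differences between reagents and between cultures cannot be told apart.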

Other observations

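The 155 ZNF genes averaging from 1 to under 10 TPM lie outside the set. Their median log2 folds were 0.35 with siRNA1 and −0.49 with siRNA2, and 0.12 and −0.31 after the GC correction; 119 (76.8%) were higher with siRNA1, against 51.8% of all genes tested, and 131 (84.5%) lower with siRNA2, against 64.97%. After the correction 57.8% were higher with siRNA1, against 74.9% in the set, and 70.1% lower with siRNA2, against 61.2% in the set. The 124 genes of the set under 20 TPM had medians of 0.49 and −0.48 with siRNA1 and siRNA2, and the 103 genes from 20 TPM upward had 0.45 and −0.28. Without the 33 genes that share at least 10% of their words with another gene, the medians were 0.49 and −0.34.

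Other zinc finger families of at least 10 TPM were measured beside the set. The 26 ZBTB genes, whose fingers follow a BTB domain, stood at medians of 0.33 (siRNA1) and −0.11 (siRNA2), and the siRNA2 value turned to 0.17 and 0.13 under the median-of-ratios and quantile scalings and to 0.15 with the GC correction. The 17 KLF and SP genes, which carry 3 fingers at the end of the protein and bind GC-rich promoter boxes, stood at 0.49 (siRNA1) and 0.36 (siRNA2), and 14 of them were higher with siRNA1 and 4 lower with siRNA2, against 52.1% and 64.7% of all genes of at least 10 TPM. The 8 ZFP genes had 0.75 and −0.39, and the 6 genes with a SCAN domain named ZSCAN or ZKSCAN had 0.37 and −0.38, with siRNA1 and siRNA2. Differences between families were not tested.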
